A study of Mus musculus with 24 samples.

Results

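The cytochrome P450 genes of the mouse, whose symbols begin with Cyp, were followed in inguinal white fat across 3 feeding or treatment conditions and 2 genotypes. The members were the protein-coding genes named Cyp followed by a digit, without Cyp51, that reached 0.5 CPM (read counts scaled to a common library total) in at least 4 of 24 RNA-seq libraries. This held for 57 of the 99 protein-coding genes of that name in a table of 41388 genes. Of the other 42, 3 had no count in any library. The member nearest the limit was Cyp17a1, with 0.547 CPM in its 4th highest library, and the nearest genes outside it were Cyp27b1 at 0.479 and Cyp7a1 at 0.450 CPM.

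Cytochrome P450 enzymes are heme proteins that insert oxygen into drugs, pollutants, fatty acids, sterols, steroids and vitamins. Those of the endoplasmic reticulum draw electrons from P450 oxidoreductase, and those of mitochondria from ferredoxin. The liver is the main site of drug-oxidising members of the CYP1, CYP2 and CYP3 families. Members in other tissues set local levels of retinoic acid, oxysterols and fatty acid mediators.

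The study examined the mineralocorticoid receptor, encoded by Nr3c2, in the subcutaneous fat pad of the groin of male mice. Mice of every group carried floxed Nr3c2 alleles. FMRKO mice also carried Cre recombinase under the adiponectin (Adipoq) promoter, which is active in fat cells, and control mice had the floxed alleles without Cre. Mice of each genotype received corticosterone, which is the chief glucocorticoid in mice, ate a high-fat diet, or ate chow, with 4 libraries in each of the 6 groups. The sources used here give no dose, length or vehicle for corticosterone, no fat content or length for the diet, and no age. The labels number the libraries without stating that each came from its own animal. The p-values therefore describe only how far these libraries spread.

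Libraries held 17925109 to 40427675 counts on genes. Nr3c2 averaged 10.6 ± 2.01 CPM in FMRKO and 16.7 ± 2.02 CPM in control fat with corticosterone, 14.5 ± 1.35 against 20.8 ± 2.95 CPM on high-fat diet, and 19.2 ± 6.23 against 23.5 ± 4.56 CPM on chow (SD, n = 4 each). Its average log2 difference between FMRKO and control was -0.49 ± 0.11 (SE), with an adjusted p of 0.287 in edgeR's quasi-likelihood test, and the labels do not say which exons are floxed. The 12 adipocyte markers summed to 30890 to 36430 CPM with corticosterone, 19330 to 34580 CPM on high-fat diet and 13330 to 26670 CPM on chow. Against chow, 9 of the 12 were called higher with corticosterone and 7 on high-fat diet, where 25.6% and 20.6% of all genes tested were higher. With corticosterone 9 of 12 preadipocyte and fibroblast markers and 7 of 8 endothelial markers were lower (32% of all genes), and 6 of 13 macrophage markers were higher. On high-fat diet 4 of the 8 endothelial markers were higher. Their part in the results on P450 genes was not tested, and in whole tissue fewer cells of a type and less RNA per cell cannot be told apart. All 8 chow titles carry a leading number that the other 16 lack, so a batch marked by it and the conditions cannot be told apart in comparisons with chow.

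Promoters of 4 members with large responses are given first, since these genes moved in different directions in the same tissue. They span 250 bases before to 50 after the start site of the RefSeq annotation (GRCm38.p6), all on the + strand. Cyp2e1, at chr7:140763569-140763868, fell in both conditions; Cyp2f2, at chr7:27119705-27120004, fell further still; Cyp1a1, at chr9:57697363-57697662, fell on high-fat diet; and Cyp2b10, at chr7:25897408-25897707, rose with corticosterone and fell on high-fat diet. Capitals mark matches on either strand to GCGTG, the core bound by the aryl hydrocarbon receptor, AGAACA, a steroid receptor half-site, AGGTCA, a nuclear receptor half-site, or TATAA, the letters of a TATA box.
Cyp2e1: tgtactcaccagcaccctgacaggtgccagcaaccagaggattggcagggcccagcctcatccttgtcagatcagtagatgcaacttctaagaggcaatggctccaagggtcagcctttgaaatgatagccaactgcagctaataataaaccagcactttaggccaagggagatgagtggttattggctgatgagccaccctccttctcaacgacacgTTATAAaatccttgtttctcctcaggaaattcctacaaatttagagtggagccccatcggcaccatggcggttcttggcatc
Cyp2f2: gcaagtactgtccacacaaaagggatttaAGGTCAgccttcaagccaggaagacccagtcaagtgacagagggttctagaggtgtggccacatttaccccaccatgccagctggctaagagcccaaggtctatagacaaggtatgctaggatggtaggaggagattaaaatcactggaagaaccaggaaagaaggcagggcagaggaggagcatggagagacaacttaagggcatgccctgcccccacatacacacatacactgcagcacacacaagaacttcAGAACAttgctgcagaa
Cyp1a1: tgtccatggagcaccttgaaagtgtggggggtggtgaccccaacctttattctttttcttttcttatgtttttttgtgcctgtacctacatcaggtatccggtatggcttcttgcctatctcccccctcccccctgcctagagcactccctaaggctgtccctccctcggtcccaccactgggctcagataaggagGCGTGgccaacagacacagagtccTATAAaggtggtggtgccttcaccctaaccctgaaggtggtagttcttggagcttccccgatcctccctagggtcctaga
Cyp2b10: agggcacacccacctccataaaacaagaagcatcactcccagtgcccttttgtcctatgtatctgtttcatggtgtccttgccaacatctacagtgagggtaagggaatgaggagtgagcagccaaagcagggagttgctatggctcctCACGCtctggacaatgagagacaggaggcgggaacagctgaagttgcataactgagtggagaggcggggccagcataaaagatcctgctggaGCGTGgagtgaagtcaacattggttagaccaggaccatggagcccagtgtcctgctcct

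The Cyp2e1 window holds TATAA at -31, overlapped by its reverse complement TTATA at -32. The Cyp2f2 window holds AGGTCA at -221 and AGAACA at position 34 after the start. Cyp1a1 has GCGTG at -54 and TATAA at -30, and Cyp2b10 has GCGTG at -9 and its reverse complement CACGC at -101. Windows were at hand for 45 of the 57 members. A member is counted below if any of its windows held a match, while the shares are of single windows, so these are unlike measures. GCGTG or CACGC was found in 13 of these 45 and in 32.4% of all 32817 promoter windows, AGAACA or TGTTCT in 10 and 19.0%, AGGTCA or TGACCT in 10 and 16.3%, and TATAA or TTATA in 23 and 24.9%. Such matches describe letters in these windows and not bound sites.

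Cyp2e1, which oxidises ethanol, acetone and other small molecules, had the highest level of the family per length (ENSMUSG00000025479, chr7:140763739-140774987). Its deposited level was 604 ± 174 RPKM with corticosterone, 115 ± 46.1 RPKM on high-fat diet and 1166 ± 232 RPKM on chow (SD, n = 8 each). Averaged over all 24 libraries it stood at 629 RPKM, ahead of Cyp2f2 at 45.6, Cyp4b1 at 30.7, Cyp2d22 at 23.9 and Cyp27a1 at 16.9 RPKM. Cyp4v3, Cyp1b1, Cyp4f17, Cyp4f13 and Cyp20a1 followed between 8.98 and 11.2 RPKM, and the lowest member, Cyp2c38, stood at 0.141 RPKM. Of all reads on the 57 members, Cyp2e1 took 61.6% on average with corticosterone, 30.9% on high-fat diet and 73.5% on chow. The summed CPM of the family was 1356 to 2436 with corticosterone, 514 to 1104 on high-fat diet and 1638 to 3351 on chow. With Cyp2e1 and Cyp2f2 left out, the medians of that sum were 618, 447 and 417 CPM in the same order of conditions.

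With corticosterone, averaged over both genotypes, 12 members were called higher and 11 lower than on chow (edgeR quasi-likelihood test, Benjamini-Hochberg adjusted p below 0.05 over 19717 genes). The 12 include Cyp17a1 and Cyp2c38, which reached the level limit in no chow library. The calls are 40.4% of the family, against 57.7% of all genes tested, of which 25.6% were higher and 32% lower. On high-fat diet 3 members were higher and 9 lower than on chow, which is 21.1% of the family, against 39.8% of all genes, 20.6% higher and 19.2% lower. The 9 include Cyp1a1, which reached the level limit in no high-fat diet library. Calls were thus not more frequent among members than among all genes. The median log2 fold change over all genes was -0.13 with corticosterone and -0.02 on high-fat diet, and over the 57 members it was -0.19 and -0.16. Both comparisons share the 8 chow libraries, so their values are given side by side.

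**Figure D1:**
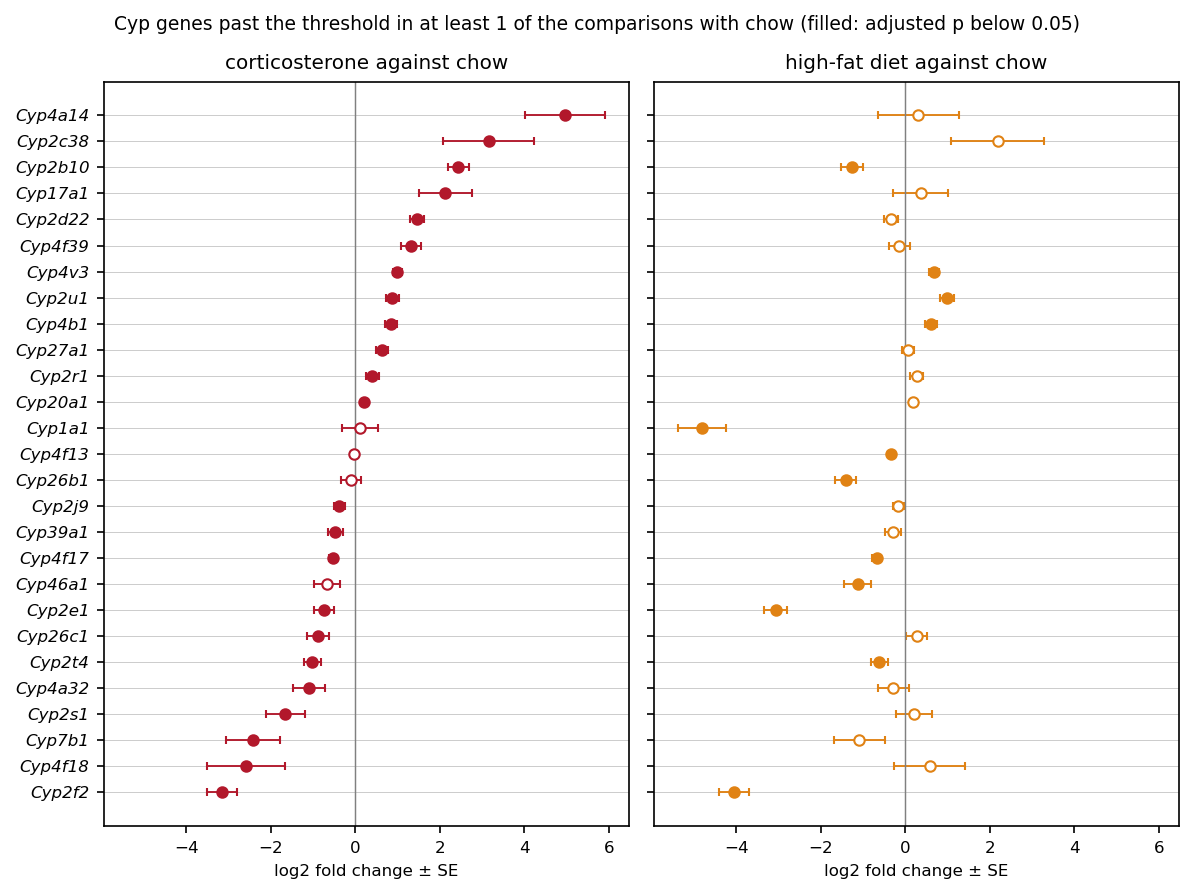
Log2 fold change against chow (x axis, with standard error) of the 27 members called in at least 1 of these comparisons, with corticosterone on the left and high-fat diet on the right; filled points have an adjusted p below 0.05. Cyp4a14 stands farthest to the right with corticosterone at 4.96, Cyp1a1 farthest to the left on high-fat diet at -4.81, and Cyp2f2 is far to the left in both panels. The filled points of Cyp17a1 and Cyp2c38 with corticosterone and of Cyp1a1 on high-fat diet were favoured by the choice of members and are not read as tests.

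Among the 29 CYP2 and CYP3 members, which oxidise drugs and small molecules, 4 were higher and 5 lower with corticosterone, and 1 was higher and 4 lower on high-fat diet. Cyp2e1 had 770.1, 1091 and 1594 CPM (lowest, median and highest library) with corticosterone, 103, 227 and 412 CPM on high-fat diet and 1189, 1993 and 2531 CPM on chow. All high-fat diet libraries lay below all others, while those of corticosterone and chow overlapped. The log2 fold change against chow was -3.07 ± 0.26 on high-fat diet, 8.41-fold lower (adjusted p = 1.5e-08, edgeR), and -0.74 ± 0.24 with corticosterone, 1.67-fold lower (adjusted p = 0.013).

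Cyp2f2, known in mice from the naphthalene-activating cells of the airways, was lower in both conditions without overlap (ENSMUSG00000052974, chr7:27119909-27133660). It had 10.7, 25.6 and 37.4 CPM with corticosterone, 3.97, 11.6 and 24.8 CPM on high-fat diet and 107, 218 and 298 CPM on chow. Every chow library lay above every other library, and those of corticosterone and high-fat diet overlapped. The gene was 8.91-fold lower with corticosterone (log2 -3.16 ± 0.35, adjusted p = 2.5e-07) and 16.6-fold lower on high-fat diet (log2 -4.05 ± 0.37, adjusted p = 3.3e-08, edgeR).

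Cyp2d22 moved the other way with corticosterone. This member of the drug-oxidising CYP2D subfamily (ENSMUSG00000061740, chr15:82370527-82380260) had 92.2, 120.1 and 156 CPM with corticosterone, 25.2, 32.6 and 44.7 CPM on high-fat diet and 26.2, 45.0 and 71.7 CPM on chow. All corticosterone libraries lay above all others. The log2 fold change was 1.47 ± 0.16 with corticosterone, 2.77-fold higher (adjusted p = 2.7e-07, edgeR), and -0.34 ± 0.16 on high-fat diet (adjusted p = 0.101).

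Cyp2b10, the best known target of the nuclear receptor CAR in mouse liver, rose with corticosterone and fell on high-fat diet (ENSMUSG00000030483, chr7:25897620-25926624). It had 5.12, 13.7 and 29.6 CPM with corticosterone, 0.374, 1.08 and 1.81 CPM on high-fat diet and 1.54, 2.37 and 4.40 CPM on chow. The corticosterone libraries lay above all others, and the high-fat diet libraries reached into the chow range only at their top. The log2 fold change was 2.43 ± 0.25 with corticosterone, 5.40-fold higher (adjusted p = 1.0e-07), and -1.27 ± 0.26 on high-fat diet, 2.41-fold lower (adjusted p = 4.5e-04, edgeR). Without 6 libraries rich in lymphocyte transcripts the high-fat diet call was lost, at a log2 value of -0.93 and an adjusted p of 0.0541.

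Cyp2u1, which in humans hydroxylates long-chain fatty acids, was higher in both conditions. It had 9.79, 10.6 and 13.0 CPM with corticosterone, 7.19, 12.9 and 15.5 CPM on high-fat diet and 4.61, 5.94 and 8.74 CPM on chow. Corticosterone libraries did not overlap with chow, and high-fat diet libraries did only at their low end. The gene was 1.83-fold higher with corticosterone (log2 0.88 ± 0.16, adjusted p = 7.8e-05) and 1.98-fold higher on high-fat diet (log2 0.98 ± 0.16, adjusted p = 3.9e-05, edgeR).

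Smaller or less certain changes in these families concerned Cyp2t4, Cyp2s1, Cyp2j9 and Cyp2c38. Cyp2t4 had 0.660, 1.19 and 1.58 CPM with corticosterone, 1.07, 1.56 and 2.62 CPM on high-fat diet and 1.36, 2.46 and 2.99 CPM on chow, with overlap of each condition and chow. It was 2.02-fold lower with corticosterone (log2 -1.02 ± 0.21, adjusted p = 3.1e-04) and 1.53-fold lower on high-fat diet (log2 -0.62 ± 0.21, adjusted p = 0.021), a call lost in several alternatives, among them leaving out the library chow FMRKO 3 (adjusted p = 0.0512). Cyp2j9, an epoxygenase of the CYP2J subfamily, was 1.30-fold lower with corticosterone (log2 -0.38 ± 0.13, adjusted p = 0.020, edgeR), and at -0.33 the call was lost without the 3 libraries richest in hepatocyte markers (adjusted p = 0.0583). Cyp2c38 rested on 163 counts in all with corticosterone, 81 on high-fat diet and 17 on chow, and 2, 2 and 5 of the 8 libraries were at 0 in that order of conditions. It entered the family through corticosterone and high-fat diet libraries alone, so a lower level on chow was favoured by the choice of members and is given with no test. Its fitted log2 fold change with corticosterone was 3.15 ± 1.09 and ranged from 2.39 to 5.41 over the alternatives. Its place among the higher calls was lost without corticosterone control 1 (log2 2.39). It was also lost without the 6 libraries rich in lymphocyte transcripts (log2 2.62). Cyp2j6, Cyp2ab1 and Cyp3a13 passed no test between conditions.

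Several CYP2 members with unlike responses lie near each other on chromosome 7. Between 25802475 and 27158668 stand Cyp2s1, Cyp2b10, Cyp2a5, Cyp2a12, Cyp2f2 and Cyp2t4 (GRCm38). Of these, Cyp2b10 was called higher and Cyp2s1, Cyp2f2 and Cyp2t4 were called lower with corticosterone, and Cyp2a5 and Cyp2a12 were called in neither direction.

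Cyp2s1, which in humans metabolises eicosanoids and retinoic acid outside the liver, had 0.265, 0.407 and 0.787 CPM with corticosterone, 0.258, 1.31 and 4.55 CPM on high-fat diet and 0.608, 1.30 and 3.12 CPM on chow. It was 3.14-fold lower with corticosterone (log2 -1.65 ± 0.46, adjusted p = 0.004, edgeR), and -1.13 ± 0.37 on the log2 scale without the 6 lymphocyte-rich libraries (adjusted p = 0.0167). Those libraries are chow FMRKO 1 and 3, high-fat diet FMRKO 1 and 4 and high-fat diet control 1 and 4. The 15 lymph node lymphocyte markers summed to 4.75 to 85.8 CPM with corticosterone, 18.5 to 1010.0 CPM on high-fat diet and 18.8 to 1036 CPM on chow, none was at 0 throughout a group, and 10 of the 15 were called lower with corticosterone than on chow. Cyp2s1 had 1.36 to 4.55 CPM in the 6 libraries, all of them chow or high-fat diet. The other chow and high-fat diet libraries had 0.258 to 1.97 CPM and overlapped with these. The 8 corticosterone libraries had 0.265 to 0.787 CPM.

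**Figure D2:**
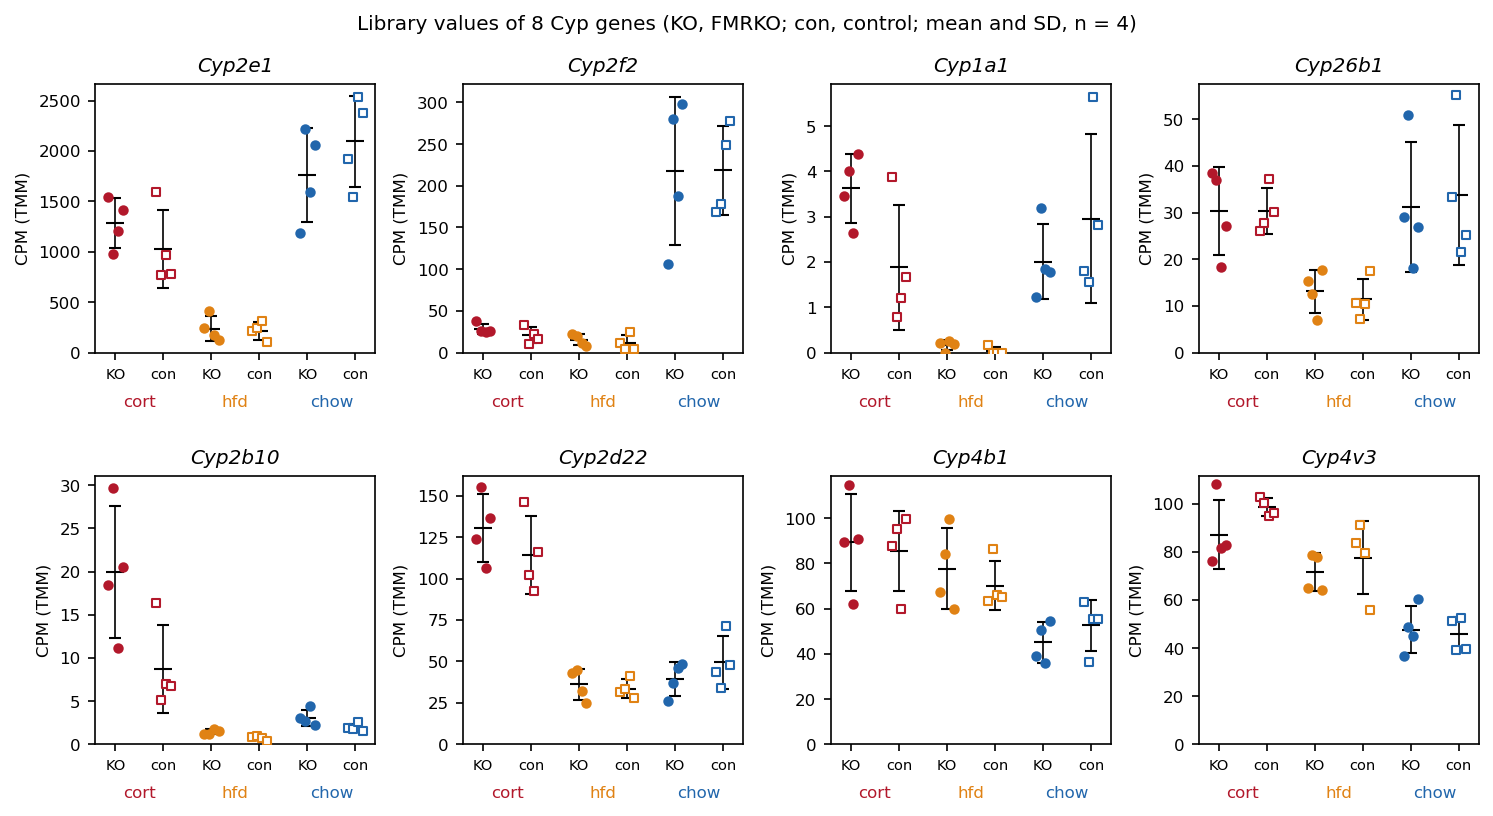
CPM in each library (points; y axes start at 0) of 8 members, by condition and genotype (x axis; cort is corticosterone, hfd high-fat diet, KO FMRKO and con control), with the mean and SD of each group of 4. Corticosterone and high-fat diet libraries of Cyp2f2 lie below all chow libraries, the corticosterone libraries of Cyp2d22 lie above all others, and the high-fat diet libraries of Cyp1a1 and Cyp26b1 lie below all others.

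The 3 CYP1 members, targets of the aryl hydrocarbon receptor that oxidise aromatic hydrocarbons and estrogens, gave 1 call against chow, and it was Cyp1a1 on high-fat diet (ENSMUSG00000032315, chr9:57687928-57703824). Cyp1a1 had 0.787, 3.05 and 4.39 CPM with corticosterone, 0, 0.0823 and 0.259 CPM on high-fat diet and 1.23, 1.82 and 5.65 CPM on chow. These values rest on 604, 22 and 533 counts in that order of conditions, and 4 of the 8 high-fat diet libraries were at 0. All high-fat diet libraries lay below all others, while corticosterone and chow overlapped. Cyp1a1 entered the family through corticosterone and chow libraries alone. A lower level on high-fat diet was thus favoured by the choice of members and is given with no test. The fitted log2 fold change was -4.81 ± 0.57 on high-fat diet, 28.1-fold lower, and 0.10 ± 0.42 with corticosterone (adjusted p = 0.852, edgeR). Without high-fat diet control 1 the first became -6.47. Cyp1b1 had 42.6, 52.8 and 92.7 CPM with corticosterone, 29.7, 44.7 and 60.5 CPM on high-fat diet and 32.7, 53.2 and 56.0 CPM on chow, and passed neither test against chow.

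The 14 CYP4 members, mainly fatty acid hydroxylases, gave 4 higher and 3 lower calls with corticosterone and 2 of each on high-fat diet. Cyp4a14, a fatty acid hydroxylase known as a PPAR alpha target in mouse liver, had the largest rise with corticosterone (ENSMUSG00000028715, chr4:115486200-115496142). It had 0.0856, 8.23 and 42.8 CPM with corticosterone, 0, 0.513 and 1.69 CPM on high-fat diet and 0, 0.273 and 1.32 CPM on chow, from 2608, 109 and 77 counts. All but 1 of the corticosterone libraries lay above all others, the exception being corticosterone control 4, which also had the least hepatocyte marker RNA of these 8, at 24.4 CPM summed. The log2 fold change with corticosterone was 4.96 ± 0.95, 31.1-fold higher (adjusted p = 1.6e-04), and on high-fat diet 0.31 (adjusted p = 0.824, edgeR). Without chow FMRKO 5 the first was 6.11, and without corticosterone control 1 it was 4.37.

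Cyp4b1 and Cyp4v3 were higher in both conditions. Cyp4b1, which hydroxylates fatty acids and activates some lung toxins (ENSMUSG00000028713, chr4:115624725-115647723), had 60.0, 90.1 and 115 CPM with corticosterone, 59.9, 66.6 and 99.7 CPM on high-fat diet and 36.1, 52.7 and 62.9 CPM on chow. Both conditions overlapped with chow at their low end, and the gene was 1.80-fold higher with corticosterone (log2 0.85 ± 0.15, adjusted p = 6.1e-05) and 1.52-fold higher on high-fat diet (log2 0.60 ± 0.15, adjusted p = 0.003). Cyp4v3, the mouse counterpart of a human fatty acid hydroxylase mutated in a crystalline dystrophy of the retina, had 76.3, 95.4 and 108 CPM with corticosterone, 55.9, 78.4 and 91.1 CPM on high-fat diet and 36.7, 46.8 and 60.4 CPM on chow. Its corticosterone libraries lay above all chow libraries. It was 1.99-fold higher with corticosterone (log2 0.99 ± 0.11, adjusted p = 2.4e-07) and 1.60-fold higher on high-fat diet (log2 0.67 ± 0.11, adjusted p = 4.7e-05, edgeR).

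Within the CYP4F genes the members differed. Cyp4f39, whose human counterpart hydroxylates very long fatty acids for the skin barrier, had 1.19, 1.56 and 2.31 CPM with corticosterone, 0.188, 0.594 and 0.817 CPM on high-fat diet and 0.241, 0.658 and 0.861 CPM on chow. Its corticosterone libraries lay above all others, and it was 2.49-fold higher with corticosterone than on chow (log2 1.31 ± 0.24, adjusted p = 1.2e-04, edgeR). Cyp4f17 had 12.4, 14.1 and 16.8 CPM with corticosterone, 10.4, 12.8 and 16.9 CPM on high-fat diet and 15.8, 21.3 and 25.1 CPM on chow. It was 1.44-fold lower with corticosterone (log2 -0.52 ± 0.10, adjusted p = 1.1e-04) and 1.61-fold lower on high-fat diet (log2 -0.68 ± 0.10, adjusted p = 1.0e-05). Cyp4f13 was 1.27-fold lower on high-fat diet (log2 -0.34 ± 0.07, adjusted p = 5.3e-04), Cyp4f16 passed no test, and Cyp4a32 was 2.14-fold lower with corticosterone (log2 -1.10 ± 0.38, adjusted p = 0.019), a call lost without chow FMRKO 5 (adjusted p = 0.0745) or chow control 4 (adjusted p = 0.0588).

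Cyp4f18, which in mice inactivates leukotriene B4 in leukocytes, had 0.147, 0.396 and 1.06 CPM with corticosterone, 0.221, 2.23 and 19.4 CPM on high-fat diet and 0.101, 1.12 and 17.1 CPM on chow. All 3 ranges overlapped. It was 6.02-fold lower with corticosterone than on chow (log2 -2.59 ± 0.93, adjusted p = 0.022, edgeR), but -0.37 ± 0.61 on the log2 scale without the 6 lymphocyte-rich libraries (adjusted p = 0.628). Leaving out chow FMRKO 1 alone gave -1.71 (adjusted p = 0.103), and leaving out chow control 2 gave -2.21 (adjusted p = 0.0558). Cyp4f18 had 3.62 to 19.4 CPM in the 6 lymphocyte-rich libraries and at most 3.59 CPM in any of the other 18.

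Of the 2 CYP26 members, which clear retinoic acid, Cyp26b1 fell on high-fat diet and Cyp26c1 with corticosterone. Cyp26b1 (ENSMUSG00000063415, chr6:84571414-84593908) had 18.3, 29.0 and 38.6 CPM with corticosterone, 7.08, 11.6 and 17.6 CPM on high-fat diet and 18.0, 28.0 and 55.2 CPM on chow. All high-fat diet libraries lay below all others, with a 2.65-fold lower level than on chow (log2 -1.41 ± 0.25, adjusted p = 1.2e-04), against a log2 fold change of -0.10 with corticosterone (adjusted p = 0.740, edgeR). Cyp26c1 had 0.258, 0.528 and 0.825 CPM with corticosterone, 0.799, 1.08 and 1.72 CPM on high-fat diet and 0.507, 0.948 and 1.45 CPM on chow, and was 1.83-fold lower with corticosterone than on chow (log2 -0.88 ± 0.26, adjusted p = 0.008).

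The 5 members of sterol and bile acid metabolism gave 1 higher and 2 lower calls with corticosterone and 1 lower call on high-fat diet. Cyp27a1, the mitochondrial sterol hydroxylase of bile acid synthesis (ENSMUSG00000026170, chr1:74713574-74737892), had 36.9, 46.2 and 56.8 CPM with corticosterone, 25.1, 31.6 and 42.0 CPM on high-fat diet and 23.2, 28.9 and 47.2 CPM on chow. The ranges overlapped, and Cyp27a1 was 1.54-fold higher with corticosterone than on chow (log2 0.62 ± 0.14, adjusted p = 9.1e-04, edgeR). Cyp7b1, an oxysterol hydroxylase, had 0.367, 0.471 and 1.77 CPM with corticosterone, 0.177, 0.961 and 7.65 CPM on high-fat diet and 1.36, 1.96 and 14.7 CPM on chow. It was 5.32-fold lower with corticosterone (log2 -2.41 ± 0.64, adjusted p = 0.003), and -1.59 on the log2 scale without chow FMRKO 5 (adjusted p = 0.0171). Cyp39a1, another oxysterol hydroxylase, was -0.47 ± 0.18 on the log2 scale with corticosterone (adjusted p = 0.033), a call lost in 13 alternatives.

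Cyp46a1, the cholesterol hydroxylase best known from neurons, had 0.420, 0.798 and 1.02 CPM with corticosterone, 0.251, 0.586 and 0.673 CPM on high-fat diet and 0.389, 1.4 and 1.99 CPM on chow. It was 2.19-fold lower on high-fat diet (log2 -1.13 ± 0.32, adjusted p = 0.008, edgeR), and without the 6 lymphocyte-rich libraries the log2 value was also -1.13 but the call was lost (adjusted p = 0.0624).

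Of the 2 steroid-synthesis members, Cyp11a1, the side-chain cleavage enzyme that starts steroid synthesis, passed no test. Cyp17a1, which leads to androgens, entered the family only through 4 corticosterone libraries, so its higher level there was favoured by the choice of members and is given with no test. It had 0.0428, 0.470 and 3.62 CPM with corticosterone, 0.0883, 0.245 and 0.449 CPM on high-fat diet and 0, 0.198 and 0.356 CPM on chow, from 200, 54 and 45 counts, and the ranges overlapped. Its highest corticosterone libraries were FMRKO 2 at 3.62 and control 1 at 1.79 CPM. The vitamin D hydroxylase Cyp2r1 was 1.32-fold higher with corticosterone (log2 0.41 ± 0.15, adjusted p = 0.026, edgeR), a call lost in 10 alternatives. Cyp20a1, which has no established substrate, was 1.16-fold higher (log2 0.22 ± 0.08, adjusted p = 0.023, edgeR), and 0.18 on the log2 scale without the epithelium-rich libraries chow FMRKO 3 and corticosterone FMRKO 3 and 4, where the call was lost (adjusted p = 0.127).

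Corticosterone and high-fat diet libraries, whose titles take the same form, were also compared directly. Here 13 members, Cyp1a1 and Cyp17a1 among them, were higher and 3 lower with corticosterone (28.1% of the family), against 16.5% higher and 21.5% lower among all genes (37.9% in all). The median log2 difference was -0.00 over the members and -0.05 over all genes. Cyp1a1 differed most, 30.1-fold higher with corticosterone (log2 4.91 ± 0.57), a difference favoured by the choice of members and given with no test. Cyp4a14 followed at 25.1-fold (log2 4.65 ± 0.93, adjusted p = 5.6e-04) and Cyp2b10 at 13.0-fold (log2 3.70 ± 0.27, adjusted p = 3.9e-09, edgeR). Cyp2e1 was 5.03-fold, Cyp2d22 3.50-fold, Cyp4f39 2.75-fold and Cyp26b1 2.47-fold higher with corticosterone, all past the threshold. Cyp27a1 was 1.48-fold, Cyp1b1 1.38-fold, Cyp4v3 1.24-fold and Cyp4f13 1.23-fold higher, all past the threshold. Without the 6 lymphocyte-rich libraries Cyp27a1 was at 0.43 on the log2 scale (0.56 with them), Cyp1b1 at 0.55 (0.46) and Cyp4v3 at 0.21 (0.32), and these calls were lost with fewer libraries (adjusted p = 0.064, 0.0747 and 0.172). Cyp2f2, at 1.86-fold, lost the call without corticosterone control 1, among others (log2 0.78, adjusted p = 0.0712).

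Cyp4f18, Cyp2s1 and Cyp26c1 were lower with corticosterone than on high-fat diet, with log2 differences of -3.16 ± 0.94, -1.86 ± 0.46 and -1.14 ± 0.26 (adjusted p = 0.011, 0.003 and 0.002, edgeR). Without the 6 lymphocyte-rich libraries the first was -0.15 (adjusted p = 0.896) and the second -0.70 (adjusted p = 0.224). Leaving out high-fat diet control 4 alone gave -2.15 for Cyp4f18 (adjusted p = 0.06).

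Each comparison with chow was also made in FMRKO and in control mice alone, and these 2 share no library. With corticosterone 11 members were higher and 6 lower in FMRKO fat, where 20.2% of all genes were higher and 20.9% lower (41.1% in all). In control fat 9 were higher and 6 lower, where 20.2% of all genes were higher and 22.7% lower (42.9% in all). Called higher in both were Cyp27a1, Cyp2b10, Cyp2d22, Cyp2u1, Cyp4a14, Cyp4b1, Cyp4f39 and Cyp4v3, which are 72.7% of the FMRKO list and 88.9% of the control list. Cyp2f2 and Cyp2t4 were lower in both, which is 33.3% of each list. Some of these calls did not hold in all 33 alternatives: in FMRKO fat Cyp4f39 lost it in 13, Cyp2t4 in 9, Cyp27a1 in 8 and Cyp2u1 in 1, and in control fat Cyp4a14 in 1, without corticosterone control 1 (adjusted p = 0.0545).

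On high-fat diet 3 members were higher and 7 lower in FMRKO fat, where 15.2% of all genes were higher and 9.18% lower (24.4% in all). In control fat 2 were higher and 8 lower, where 15.3% of all genes were higher and 13.9% lower (29.2% in all). The 7 lower members in FMRKO fat, Cyp1a1, Cyp26b1, Cyp2b10, Cyp2e1, Cyp2f2, Cyp4f13 and Cyp4f17, were all lower in control fat as well, where they make up 87.5% of the list. For Cyp1a1 a lower level was favoured by the choice of members. Cyp2u1 and Cyp4v3 were higher in both genotypes, which is 66.7% of the FMRKO list and 100% of the control list. In FMRKO fat the lower call was lost in 5 alternatives for Cyp2b10, 5 for Cyp4f13, 2 for Cyp4f17 and 1 for Cyp26b1, and in control fat in 1 for Cyp2b10. Cyp2e1 on high-fat diet had a log2 fold change of -2.89 in FMRKO fat and -3.26 in control fat.

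Between genotypes no member was called. Averaged over the 3 conditions, 0 of 57 members passed edgeR's test, against 0.0355% of all genes (0.0254% higher and 0.0101% lower). In this average 1 member had an unadjusted p below 0.05, as had 1314 of the 19717 genes tested, and 1 member was called by DESeq2. The share of all genes that DESeq2 called was not determined. The counts in the single conditions were also 0, against 0.00507% of all genes with corticosterone, 0.0101% on high-fat diet and 0.0101% on chow. In that order 2, 3 and 2 members had an unadjusted p below 0.05, as had 843, 781 and 2353 of the 19717 genes. No member passed the test of whether the genotypes responded differently to high-fat diet or to corticosterone, where 0% of all genes did. In these tests 4 and 2 members had an unadjusted p below 0.05, as had 1939 and 1171 of the 19717 genes. DESeq2 also called 0 members in each single condition and in both of these tests.

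Cyp2b10 had the smallest p of the family. With corticosterone it had 18.4, 29.6, 11.2 and 20.6 CPM in FMRKO fat, against 16.3, 5.12, 6.93 and 6.72 CPM in control fat. On high-fat diet it had 1.20, 1.25, 1.81 and 1.51 CPM in FMRKO fat, against 0.823, 0.972, 0.695 and 0.374 CPM in control fat, and on chow 3.01, 2.73, 4.40 and 2.18 CPM in FMRKO fat, against 1.93, 1.72, 2.57 and 1.54 CPM in control fat. The mean was higher in FMRKO fat in each condition, and on high-fat diet the genotypes did not overlap. The average log2 difference was 0.96 ± 0.20, 1.94-fold higher, with an unadjusted p of 1.3e-04 and an adjusted p of 0.149 in edgeR. DESeq2 gave 0.96 with an adjusted p of 0.0059, and without corticosterone control 1 edgeR gave 1.12 with an adjusted p of 0.0115. These were the only 2 of 33 alternatives in which Cyp2b10 passed the threshold. Over the 33 its log2 difference ranged from 0.80 to 1.12, and it was lowest, at 0.80 ± 0.26, without the 6 lymphocyte-rich libraries. Cyp1a1 and Cyp4f13 came next, at 0.78 ± 0.43 and 0.10 ± 0.06 (adjusted p = 0.802 and 0.827, edgeR).

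Besides Cyp2b10, 3 members had genotypes that did not overlap in a condition. None passed the test, which 0.0101% of all genes did on high-fat diet and 0.00507% with corticosterone. The share of all genes whose genotypes did not overlap was not determined, so the number of such members is not read as an excess. Cyp1b1 on high-fat diet had 45.6, 48.7, 46.3 and 60.5 CPM in FMRKO fat, against 34.6, 43.8, 29.7 and 43.0 CPM in control fat. Cyp2ab1, with corticosterone, had 3.31, 2.70, 3.38 and 2.75 CPM in FMRKO fat, against 1.61, 2.57, 1.53 and 1.41 CPM in control fat. Cyp4f39, with corticosterone, had 1.22, 1.19, 1.29 and 1.54 CPM in FMRKO fat, against 1.76, 1.79, 2.31 and 1.58 CPM in control fat.

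A large share of the family varied between libraries together with hepatocyte transcripts. The 8 hepatocyte markers (Alb, Apoa1, Apoa2, Ttr, Serpina1a, Fgb, Tat and Cps1) summed to 24.4 to 899 CPM with corticosterone, 22.8 to 1798 CPM on high-fat diet and 9.73 to 1780.0 CPM on chow. None was at 0 throughout a group, and none was called in the comparisons between conditions or in the FMRKO average. Of the 57 members, 24 (42.1%) had a Spearman rho of 0.8 or more with the mean log2 CPM of these markers across the 24 libraries, against 1.19% (235) of all genes tested. The limit of 0.8 was chosen after the values were seen, and Cyp4f14 lay just inside it at 0.808 and Cyp3a13 just outside at 0.798. The source of these transcripts in the fat libraries was not tested.

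These 24 were Cyp2c29, Cyp2c37, Cyp2c50, Cyp2c54, Cyp2c67, Cyp2c68, Cyp2c70 and Cyp2c23, Cyp2d9, Cyp2d10, Cyp2d26 and Cyp2d40, Cyp2a5 and Cyp2a12, Cyp2j5, Cyp3a11 and Cyp3a25, Cyp1a2, Cyp4a10, Cyp4a12a and Cyp4a12b, Cyp4f14 and Cyp4f15, and Cyp8b1. Most are drug, steroid or fatty acid oxidases best known from liver, and Cyp8b1 is the sterol hydroxylase that sets the makeup of bile acids. Their rho lay between 0.81 and 0.99 and their Pearson r between 0.82 and 0.99, each with a permutation p of 1e-05, the smallest that 100000 resamples can give, among 57 relations computed. As the 24 were picked by their rho in the same libraries, these p-values follow from the choice and add no support. Pearson r was 0.80 to 0.98 without the 2 libraries farthest from the median, high-fat diet control 3 and chow FMRKO 5, and 0.87 to 0.99 within groups.

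The highest library was high-fat diet control 3 for 14 of the 24, chow FMRKO 5 for 9 and corticosterone FMRKO 2 for 1. Cyp3a11, a main steroid and drug oxidase of mouse liver, ran over 0.0856 to 84.8 CPM with corticosterone, 0.251 to 34.4 CPM on high-fat diet and 0 to 108 CPM on chow. None of the 24 was called in any of the 3 comparisons between conditions, and every call came from the other 33 members. The 24 were chosen for following markers that spread widely within conditions and were not called themselves. Such a choice makes calls unlikely, so this split is not a separate result.

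**Figure D3:**
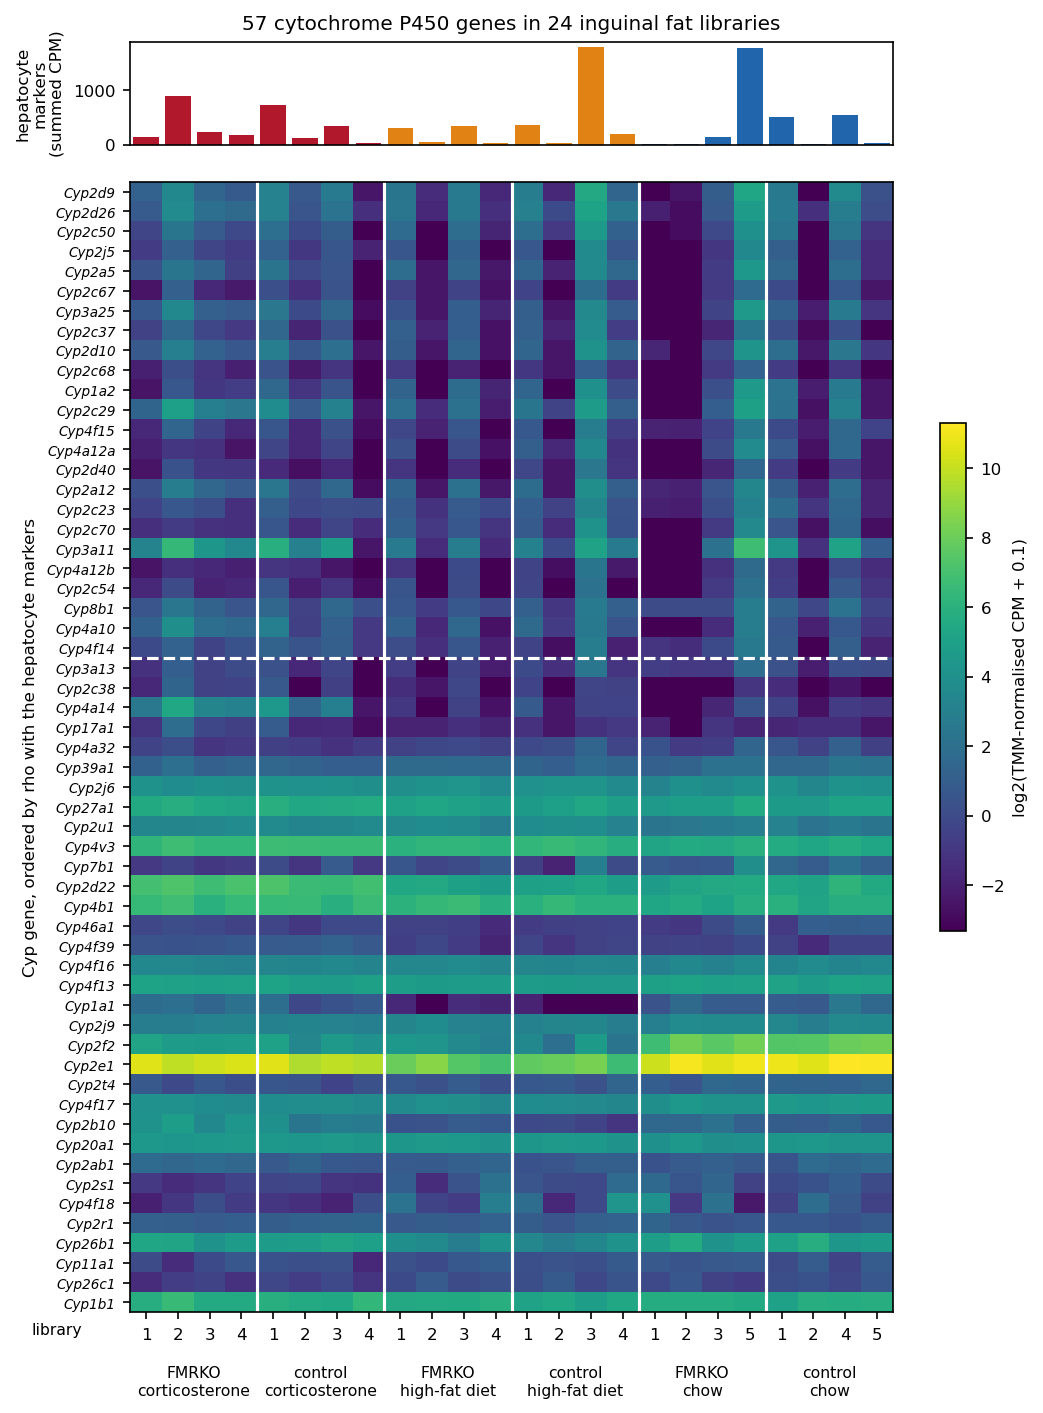
Log2(CPM + 0.1) of the 57 members (rows) in the 24 libraries (columns, by group), with rows ordered by their Spearman rho with the hepatocyte markers, a dashed line at 0.8, and bars above for the summed CPM of these markers. Members above the line are bright in the same few libraries, high-fat diet control 3 and chow FMRKO 5 among them.

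Members called between conditions ranged widely in how far they followed these markers. For Cyp2e1, Pearson r with the hepatocyte markers was -0.03 (permutation p = 0.874) and rho 0.04 (p = 0.840), with r at 0.25 within groups. For Cyp2d22, r was 0.21 (permutation p = 0.321), rho 0.27 (p = 0.205) and r within groups 0.56, so the CYP2D subfamily held members on both sides of the limit. For Cyp4a14, r was 0.46 (permutation p = 0.023, 0.045 adjusted over the 57), rho 0.66 (p = 6.1e-04) and r within groups 0.72, and without the 2 farthest libraries r was 0.59. Cyp2c38 lay closer to the limit, with an r of 0.66 (permutation p = 3.1e-04), a rho of 0.75 (p = 2.0e-05), 0.71 within groups and 0.71 without the 2 farthest libraries. For Cyp7b1, r was 0.49 (permutation p = 0.013), rho 0.29 (p = 0.168) and r within groups 0.74, but r was 0.12 without the 2 farthest libraries, so it rests on those. With the mean of the hepatocyte markers as a covariate, an alternative added after the data were seen, Cyp4a14 with corticosterone had a log2 fold change of 4.97 ± 0.58 (adjusted p = 5.5e-07, edgeR).

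**Figure D4:**
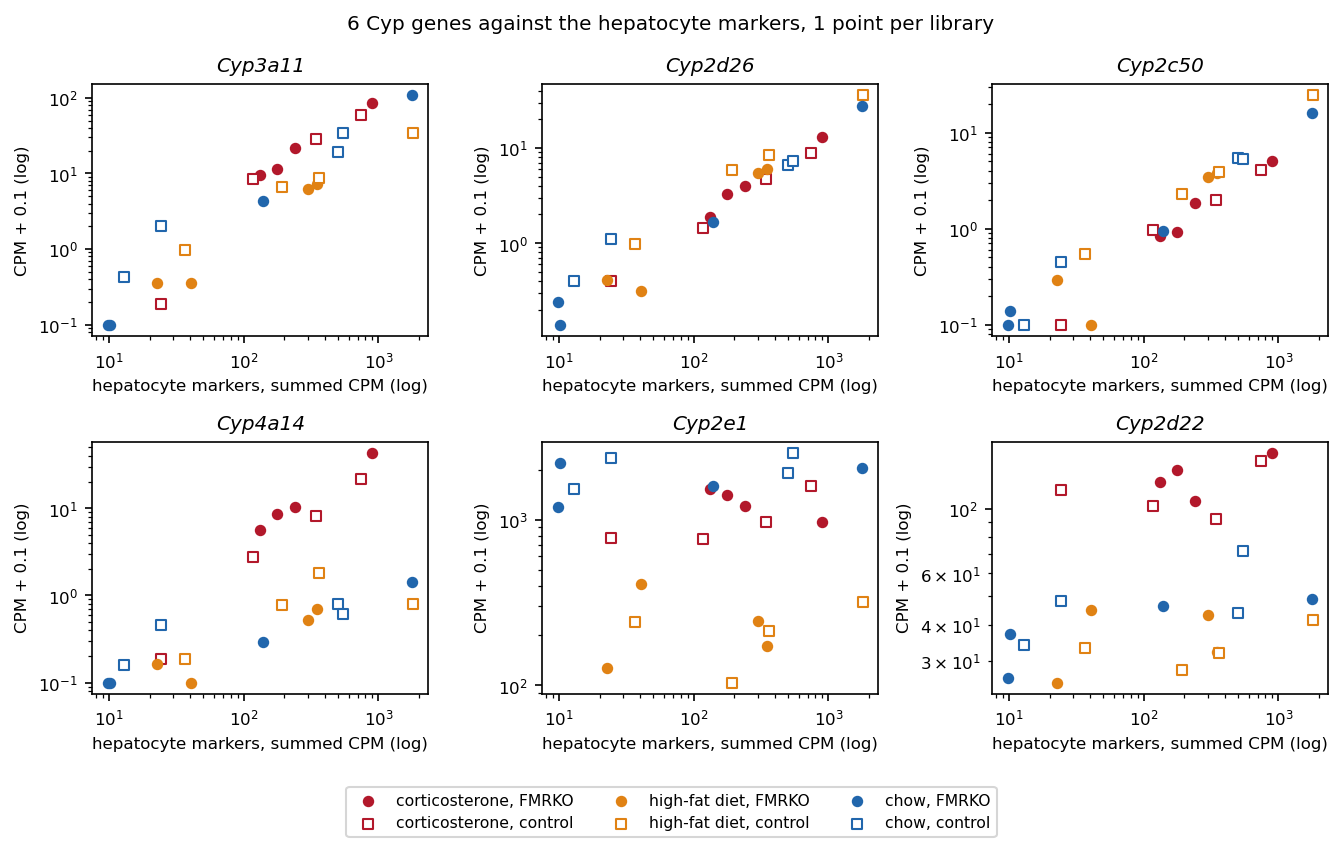
CPM + 0.1 of 6 members (y axis, log scale) against the summed CPM of the 8 hepatocyte markers (x axis, log scale) in each of the 24 libraries, coloured by condition, with filled points for FMRKO and open squares for control. Cyp3a11, Cyp2d26 and Cyp2c50 rise with the markers in every condition, Cyp4a14 lies higher with corticosterone in all but 1 library, Cyp2e1 lies lowest on high-fat diet at any marker level, and Cyp2d22 lies highest with corticosterone.

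With the same covariate, 8 of the 24 were called higher and 2 lower with corticosterone than on chow, and 3 were higher on high-fat diet. These 24 were chosen for following the covariate. The share of all genes called with it was not determined. Without it, 57.7% of all genes were called with corticosterone and 39.8% on high-fat diet. Cyp4a10, a fatty acid hydroxylase, was higher by 2.30 ± 0.38 on the log2 scale with corticosterone (adjusted p = 3.6e-05), Cyp2c29 by 1.82 (adjusted p = 8.1e-05) and Cyp3a11 by 1.60 (adjusted p = 8.2e-04, edgeR). Cyp4a12a and Cyp1a2 were lower, at -1.46 (adjusted p = 0.005) and -1.0 (adjusted p = 0.039). On high-fat diet Cyp2c37, Cyp2c70 and Cyp4a10 were higher by 1.64, 1.05 and 0.96.

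Genes that serve P450 enzymes or share their substrates were counted as lists, to be read against 57.7% of all genes called with corticosterone and 39.8% on high-fat diet. Of 7 electron donors tested, 5 were higher and 1 lower with corticosterone, with a median log2 fold change of 0.96, and 3 were higher and 1 lower on high-fat diet, with a median of -0.08. Fdx1, the ferredoxin of mitochondrial P450s, averaged 52.8 ± 11.6 CPM with corticosterone, 17.7 ± 2.90 CPM on high-fat diet and 21.0 ± 3.86 CPM on chow (SD, n = 8 each), a log2 fold change of 1.33 ± 0.14 with corticosterone (adjusted p = 1.5e-07). Cyb5b, Cyb5a and Cyb5r3, of the cytochrome b5 system, were higher with corticosterone by 1.18, 1.05 and 0.96, and Cyb5b and Cyb5r3 on high-fat diet by 1.97 and 1.08. Por, which feeds the microsomal enzymes, averaged 674 CPM with corticosterone, 495 CPM on high-fat diet and 674 CPM on chow, a log2 fold change of -0.45 ± 0.16 on high-fat diet (adjusted p = 0.027, edgeR).

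Of 9 genes of the aryl hydrocarbon receptor and its targets, 2 were higher and 2 lower with corticosterone (median log2 fold change -0.09), and 2 higher and 3 lower on high-fat diet (median -0.13). Ahr encodes the receptor whose core letters were found in the Cyp1a1 window. It averaged 10.5 ± 1.65 CPM with corticosterone, 16.1 ± 2.08 CPM on high-fat diet and 26.1 ± 3.08 CPM on chow (SD, n = 8 each). Its log2 fold change was -1.31 ± 0.09 with corticosterone (adjusted p = 7.1e-10), where Cyp1a1 was not called, and -0.70 ± 0.09 on high-fat diet (adjusted p = 4.4e-06, edgeR), where Cyp1a1 fell. The part of Ahr in the level of Cyp1a1 was not tested. Tiparp, a target of the receptor, was higher by 0.36 with corticosterone and 0.44 on high-fat diet.

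Of 14 xenobiotic and lipid nuclear receptors, 2 were higher and 2 lower with corticosterone (median log2 fold change -0.10) and 1 higher and 2 lower on high-fat diet (median -0.20). Vdr, the vitamin D receptor, averaged 4.16 ± 2.23 CPM with corticosterone, 0.867 ± 0.204 CPM on high-fat diet and 1.01 ± 0.348 CPM on chow (log2 1.98 ± 0.27 with corticosterone, adjusted p = 2.8e-06). Rxrg was higher in both conditions, by 1.80 and 0.87, and Nr2f2 lower, at -0.51 and -0.54. The receptors known to drive Cyp2b10, Cyp3a11 and Cyp4a14 in liver, named here after their values were seen, were not called with corticosterone. Nr1i3 (CAR) had a log2 fold change of -0.71 (adjusted p = 0.357), Nr1i2 (PXR) of -0.33 (adjusted p = 0.676, edgeR) and Ppara of -0.14. These are transcript values only. The part of these receptors in the levels of Cyp2b10, Cyp3a11 and Cyp4a14 was not tested.

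Of 14 retinoid-handling genes, 5 were higher and 6 lower with corticosterone (median log2 fold change -0.49), and 4 higher and 2 lower on high-fat diet (median 0.02). Aldh1a1, which makes retinoic acid, averaged 254 ± 37.3 CPM with corticosterone, 63.9 ± 15.9 CPM on high-fat diet and 38.3 ± 8.92 CPM on chow (SD, n = 8 each). Its log2 fold change was 2.73 ± 0.17 with corticosterone (adjusted p = 1.0e-10) and 0.74 on high-fat diet, where Cyp26b1 fell. The receptor gene Rarg was lower in both conditions, at -0.51 and -0.70, the retinaldehyde reductase Dhrs3 higher, by 0.77 and 0.79, and the carrier Rbp4 was higher on high-fat diet by 1.27.

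Of 12 epoxide hydrolases and eicosanoid synthases, 2 were higher and 6 lower with corticosterone (median log2 fold change -0.38), and 1 higher and 3 lower on high-fat diet (median -0.12). The prostaglandin E synthase Ptges was higher by 1.45 with corticosterone and lower, at -0.60, on high-fat diet. Ephx1, the microsomal epoxide hydrolase, was higher by 0.63 on high-fat diet, and Ephx2, which hydrolyses fatty acid epoxides, was at -0.51 there.

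Of 9 oxysterol and steroid partners, 3 were higher and 2 lower with corticosterone (median log2 fold change -0.17), and 2 higher and 3 lower on high-fat diet (median 0.10). Hsd11b1, which regenerates active glucocorticoid, averaged 577 ± 175 CPM with corticosterone, 43.9 ± 8.12 CPM on high-fat diet and 71.1 ± 17.9 CPM on chow (SD, n = 8 each), with log2 fold changes of 3.03 ± 0.19 (adjusted p = 1.0e-10) and -0.69 (adjusted p = 0.003, edgeR). Srd5a3 was higher by 0.51 and 0.52, and Hsd17b12 by 0.42 and 0.87. No gene of these lists was called in the FMRKO average.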

How the data were processed

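Per the labels' protocols, RNA of frozen fat pads was purified with TRIzol and a PureLink column, and KAPA RiboErase removed ribosomal RNA before library preparation. The deposited tables hold read counts per Ensembl gene, with CPM and RPKM that the authors computed from them. STAR 2.5.1a, Subread, featureCounts 1.4.6p-5 and GRCm38 are named in the submitters' processing notes. No source used here gives the strand setting or the annotation. Near-identical copies within Cyp2a, Cyp2c, Cyp2d, Cyp3a, Cyp4a and Cyp4f may share reads. CPM and RPKM recomputed from the counts equalled the deposited values. Symbols were found for 97.3% of gene IDs in the GENCODE M21 annotation.

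Counts were tested with edgeR 4.0.16 (R 4.3.3), with TMM normalization, filterByExpr at a minimum count of 10 (19717 genes, all 57 members), 1 mean for each of the 6 groups, 18 residual degrees of freedom, and quasi-likelihood tests with Benjamini-Hochberg adjustment over all genes at 0.05. The prior degrees of freedom were 2.81 and the biological coefficient of variation 33.7%. The script was tested on simulated data. Printed CPM are TMM-normalized, RPKM are as deposited, and values are given as SD or SE as stated. Libraries held 17925109 to 40427675 counts. Members and lists were chosen with earlier results of these data known, as were the lymphocyte-, muscle- and epithelium-rich libraries left out in alternatives. Every member could be named; called members with the 8 largest changes in each comparison between conditions, the 3 with the smallest p between genotypes and the 5 with the highest RPKM were given library by library or as ranges. Up to 4 genes of each further list were named, those called with the smallest p.

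Replicate numbers are shared between genotypes. Same-numbered libraries correlated in their deviations on high-fat diet (0.20, 0.55, 0.55 and 0.72), but not on chow (-0.28, 0.11 and -0.14) or with corticosterone (-0.003, -0.04, 0.05 and 0.08), so the numbers pair libraries on high-fat diet at most. Alternatives were DESeq2 1.42.0, RLE factors, no count filter, a replicate block, left-out libraries and a hepatocyte covariate.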

Additional observations from a re-analysis of the deposited data

Results flagged for a closer look

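In groups of 4 libraries, 14 values of the members given library by library stood apart from the other 3 by Dixon's ratio, and chance alone flags about 1 in 20 of the 108 groups examined. With corticosterone, FMRKO 2 stood apart for Cyp4a14 at 42.8 CPM and for Cyp17a1 at 3.62 CPM, and FMRKO 1 for Cyp2f2 at 37.4 CPM. Corticosterone control 1 stood apart for Cyp17a1 at 1.79 CPM and for Cyp2b10 at 16.3 CPM. On high-fat diet, control 3 stood apart for Cyp7b1 at 7.65 CPM, control 2 for Cyp4b1 at 86.4 CPM and control 1 for Cyp1a1 at 0.165 CPM, while FMRKO 3 stood apart for Cyp17a1 at 0.302 CPM and FMRKO 4 for Cyp46a1 at 0.251 CPM. On chow, FMRKO 5 stood apart for Cyp7b1 at 14.7 CPM, for Cyp4a14 at 1.32 CPM and for Cyp2c38 at 0.355 CPM, and control 1 for Cyp46a1 at 0.450 CPM. Corticosterone FMRKO 2, high-fat diet control 3 and chow FMRKO 5 are also the 3 libraries richest in hepatocyte markers, at 899, 1798 and 1780.0 CPM summed, and chow FMRKO 5 held 14650 CPM of skeletal muscle markers. The part of these transcripts in the values that stood apart was not tested.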

How the results depend on the processing

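Of 103 member values called between conditions, 61 kept their direction and call in every alternative, 42 lost the call in at least 1, and 1 of these 42 also reversed: Cyp4f18 with corticosterone in FMRKO fat, at 1.00 on the log2 scale without the 6 lymphocyte-rich libraries (adjusted p = 0.465). The hepatocyte covariate and leaving out the 3 hepatocyte-rich libraries were chosen after seeing the data. With that covariate 20 members were higher with corticosterone (17 in FMRKO fat) and 7 on high-fat diet (5 in FMRKO fat). The share of all genes called with it was not determined. Nor was that share determined for the alternatives that follow, except for the block in the high-fat diet libraries alone. Their counts are therefore not read as a result about the members. Without the lymphocyte-rich libraries 8 members were higher and 1 lower with corticosterone than on high-fat diet, 6 were higher with corticosterone in FMRKO fat, and 4 were lower on high-fat diet in FMRKO fat. Without the 3 epithelium-rich libraries 6 were higher and 1 lower with corticosterone in FMRKO fat. DESeq2 called 1 member higher in the FMRKO average. With the replicate block 7 members were lower with corticosterone (3 in FMRKO fat). Among the calls lost with the block were Cyp2e1 with corticosterone (log2 -0.65, adjusted p = 0.0535) and Cyp46a1 on high-fat diet (log2 -0.78, adjusted p = 0.0706), although the numbers were not seen to pair libraries with corticosterone or on chow. In the high-fat diet libraries alone, where same-numbered libraries correlated, the block gave 0 of 53 members and 39 of 17484 genes between genotypes, an alternative also added later. Leaving out single libraries gave 10 to 13 higher and 9 to 13 lower with corticosterone, 3 to 7 and 8 to 11 on high-fat diet (7 without chow FMRKO 5), and 11 to 14 and 2 to 4 between corticosterone and high-fat diet. Within genotypes it gave 7 to 12 and 3 to 8 with corticosterone in FMRKO fat, 8 to 9 and 3 to 7 in control fat, 2 to 4 and 5 to 8 on high-fat diet in FMRKO fat, and 2 and 7 to 10 in control fat. In the FMRKO average it gave 0 to 1 higher (1 without corticosterone control 1) and 0 lower. Depth limits Cyp1a1 on high-fat diet, at 22 counts in 8 libraries, and Cyp2c38 on chow, at 17; counts cover counting error only.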

Other observations

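Cyp3a11 was also expressed per 1000 CPM of the summed hepatocyte markers, library by library. Its median was 76.1 with corticosterone, 20.6 on high-fat diet and 34.5 on chow. The ranges were 3.50 to 94.3, 6.37 to 34.5 and 0 to 80.6 in the same order and overlapped. Cyp3a11 does not stand for all 24 members that followed the markers, whose medians differed in pattern. In the same order they were 16.3, 7.12 and 2.86 for Cyp4a10, 8.22, 8.41 and 8.48 for Cyp2a12, and 2.37, 7.55 and 8.53 for Cyp1a2.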
